A study of Mus musculus with 441 samples.

Results

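The subject of this report is a set of 477 mouse gene windows that carried a strong mark of promoter activity in embryonic stem cells while the gene itself was hardly read in single cells of the same culture. They were selected on measured values: at least 600 reads of H3K4me3 and under 30 reads of H3K27me3 in serum cultures, with the gene at a TPM of 1 or more in under 5% of the cells of each of 2 serum plates. TPM is the length-normalised share of a sample's transcripts that belongs to 1 gene. The 477 windows were found among 23167 in all, 7275 of which passed both ChIP limits, and 7023 of these had a gene in the single-cell table. A further 9 windows met the rule but were left out because their names read as dates.

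The mouse embryonic stem cells (mESCs) were of the v6.5 line, cultured with the cytokine LIF and either serum or 2i, the name for a combined block of the kinases MEK and GSK3. A Dgcr8 knockout mESC culture was kept in serum+LIF; Dgcr8 works with Drosha in microRNA processing, and how many clones were used is not known here. Neural precursor cells (NPCs) came from v6.5 in vitro through ITSFn selection, then N2 with bFGF on laminin. Single-cell RNA was read in 90 and 93 serum cells, 94 cells in 2i, 84 knockout cells and 54 NPCs, bulk RNA in 2 serum, 1 2i and 2 knockout libraries, and ChIP in 1 library per mark and stem cell culture.

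H3K4me3 is laid down at the start sites of genes, above all at those rich in CpG, and H3K27ac marks active promoters and enhancers. RNA polymerase II can be recruited to a promoter and pause there, so that a marked and occupied start site need not yield a long transcript. H3K27me3 is the mark of the Polycomb complexes, which hold developmental genes off, and the H3K27me3 limit keeps most such genes out of the set. Whether a marked promoter that is quiet in one state is read in another is a usual question for stem cells.

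The rule fixed the H3K4me3 and H3K27me3 reads in serum and the serum single-cell values, which are described here without a test. Just inside the H3K4me3 limit were Galns (600 reads), AK129341 (604) and Hivep1 (605), and just outside it Agap3 (597), Armc7 (593) and Zfp109 (592). At the H3K27me3 limit, 2410066E13Rik, Ank and Cpeb2 had 29 reads, and 5730577I03Rik, C85492 and Dip2a had 30. Atrn, Bbs12 and Epha1 reached TPM 1 in 4.44% of the cells of a serum plate, and Specc1, Tesk1 and Traf3, just outside, in 5.38%.

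Silence in the serum cells has a particular meaning in these files. The deposited table of stem cells lists 9636 of its genes at 0 in every one of the 183 serum cells. It holds 9 genes seen in 1 to 9 serum cells against 47 seen in exactly 10. Genes read in fewer than about 5% of cells of a population were therefore mostly set to 0. Of the 477 genes, 465 were listed at 0 in every serum cell, and the other 12 had a value above 0 in 11 to 53 of the 183 cells. An exact 0 here covers both no reads and reads in a few cells, and no upper limit is set on it.

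Bulk RNA from serum cultures, which the rule did not use, gave the same genes low values. Of the 459 found in the bulk table, 113 (24.6%) were at 0 in both serum libraries, where 18.9% of all 17085 genes compared were. Their median TPM was 0.0751 in serum library 1 and 0.0241 in library 2, against 0.542 and 0.392 for all genes. Beside other genes silent in serum cells the set was not low. Of all 6423 such genes in bulk, the set included, 56% and 69% were at 0 in libraries 1 and 2, with medians of 0. In the set 31.4% and 49% were at 0. A TPM of 1 or more in both libraries was seen for 5 genes of the set (1.09%; 37.2% of all genes). Tmem39b, a multi-pass membrane protein, had the highest level, 5.35 and 2.39 TPM, followed by Tmem129, a ubiquitin ligase of the endoplasmic reticulum, with 2.43 and 2.79. Galns, a lysosomal sulfatase, stood at 1.66 and 1.87 TPM and Erbb3, a neuregulin receptor, at 1.65 and 1.73. A130022J15Rik (Eogt in RefSeq, a glycosyltransferase) was at 1.82 and 1.56 TPM. Angel1, Dnajc16 and Zfat, next in order, lay between 0.881 and 1.78 TPM in single libraries. Over all genes, those at 1 to 3 TPM in serum bulk were listed at 0 in every serum cell in 1.89% of cases, and those above 0.1 and up to 0.3 TPM in 47%. In bulk RNA, fewer cells that read a gene and less of its RNA per cell cannot be told apart.

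By RefSeq gene type, 382 of the 477 were protein coding, 68 long non-coding RNAs, 21 small RNAs and 3 pseudogenes, and 3 were not matched. Long non-coding RNAs made up 14.3% of the set, 0.695% of the 4606 windows that passed the same ChIP limits with a gene expressed in at least 50% of the cells of both serum plates, and 7.12% of all windows. Names of the Rik clone type were likewise frequent, at 18.4% against 5.41% and 9.77%. Small RNAs were 14 snoRNAs, 4 microRNAs, the guide RNA Scarna13, the U12 spliceosomal RNA Rnu12 and Terc, the RNA template of telomerase. The cell libraries came from a kit that primes on poly(A) tails, which such small RNAs lack, and a low value in cells is no sign that these RNAs are absent.

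The RefSeq promoter table (GRCm38.p6, 250 bases before to 50 after a start) matched 380 of the genes. Of these, 336 (88.4%) combined a CpG observed over expected ratio of at least 0.6 with a GC share above 50%. This held for 81.9% of the expressed windows with a promoter sequence. It held for 79.9% of 229 such windows among the 302 that were silent with H3K4me3 and at least 100 reads of H3K27me3. Of all windows with a promoter sequence 46.2% met it, and of all RefSeq promoters 33.9%. Among motifs searched on both strands, the GC box GGGCGG was found in 78.4% of the 380 promoters (35.9% of all promoters). Its share was 68.5% in expressed windows, 69% in the silent windows with H3K27me3 and 47.2% in all windows with a promoter sequence. TATAAA was found in 3.16% (14.2% of all promoters), against 5.96%, 6.99% and 13% in the same order. The Ets-type CCGGAAG was found in 22.6% (9.12% of all promoters), GCGCATG in 7.37% (4.04%), CACGTG in 7.89% (7.24%), TGACGTCA in 3.16% (1.88%) and CCAAT in 35.8% (37.9%). CCGGAAG was about as frequent as in expressed windows (27.6%) and more frequent than in the silent windows with H3K27me3 (3.06%); these are descriptions, and a match is not a bound site. None of these motifs contains another.

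Below are the 250 bases before the RefSeq start, 5′ to 3′ on the gene's strand, with CpG in capitals, for 6 genes that bracket the results. They were taken from the protein-coding genes without an overlapping window and with a single start in the table. Among these, Lmln and Ier5l had the most RNA polymerase II in serum, Vps37d and Hivep1 the least, Zfhx2 was read in the largest share of 2i cells and Ank in the largest share of NPCs. The 300-base entries lie at chr16:33062271-33062570 (Lmln), chr2:30474150-30474449 (Ier5l), chr5:135078217-135078516 (Vps37d), chr13:42051771-42052070 (Hivep1), chr14:55091999-55092298 (Zfhx2) and chr15:27466427-27466726 (Ank) in GRCm38.p6, which is not the build of the ChIP windows.
Lmln: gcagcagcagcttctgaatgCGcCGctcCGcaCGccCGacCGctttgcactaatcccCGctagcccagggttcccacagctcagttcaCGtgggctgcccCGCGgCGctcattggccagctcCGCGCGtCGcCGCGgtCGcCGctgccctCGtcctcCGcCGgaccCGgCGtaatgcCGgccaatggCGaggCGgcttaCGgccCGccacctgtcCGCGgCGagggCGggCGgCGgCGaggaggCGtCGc
Ier5l: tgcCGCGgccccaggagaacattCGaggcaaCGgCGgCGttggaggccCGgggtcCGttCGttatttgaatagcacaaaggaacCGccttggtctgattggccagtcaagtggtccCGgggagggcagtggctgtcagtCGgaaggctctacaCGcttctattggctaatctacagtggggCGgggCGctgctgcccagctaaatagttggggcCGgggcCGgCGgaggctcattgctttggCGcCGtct
Vps37d: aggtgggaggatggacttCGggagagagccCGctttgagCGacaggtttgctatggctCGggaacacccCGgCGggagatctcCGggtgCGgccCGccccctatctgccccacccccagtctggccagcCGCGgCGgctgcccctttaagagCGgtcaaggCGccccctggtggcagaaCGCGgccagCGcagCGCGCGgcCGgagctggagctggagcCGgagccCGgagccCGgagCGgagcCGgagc
Hivep1: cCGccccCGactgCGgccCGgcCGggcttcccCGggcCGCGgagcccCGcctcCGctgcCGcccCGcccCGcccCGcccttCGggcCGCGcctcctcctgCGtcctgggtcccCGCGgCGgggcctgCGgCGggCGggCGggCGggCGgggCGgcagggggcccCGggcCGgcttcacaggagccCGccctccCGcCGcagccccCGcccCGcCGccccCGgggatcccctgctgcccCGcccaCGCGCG
Zfhx2: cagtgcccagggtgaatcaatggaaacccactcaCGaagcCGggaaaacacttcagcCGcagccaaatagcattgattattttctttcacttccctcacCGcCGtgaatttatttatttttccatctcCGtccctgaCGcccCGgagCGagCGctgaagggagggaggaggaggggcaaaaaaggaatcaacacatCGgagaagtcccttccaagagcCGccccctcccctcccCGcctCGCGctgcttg
Ank: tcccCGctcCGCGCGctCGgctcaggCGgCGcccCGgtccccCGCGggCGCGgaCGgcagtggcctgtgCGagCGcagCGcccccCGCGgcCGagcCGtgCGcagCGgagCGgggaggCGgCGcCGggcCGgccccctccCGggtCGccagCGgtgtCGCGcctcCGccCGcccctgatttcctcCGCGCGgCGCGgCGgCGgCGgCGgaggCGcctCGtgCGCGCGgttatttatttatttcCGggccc
The stretches hold 38, 20, 26, 41, 15 and 49 CpG in the order shown. The gene with the least polymerase, Vps37d, thus had more CpG than Ier5l, and GC shares ran from 55.6% in Zfhx2 to 88.4% in Hivep1.

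Many of these genes share their window with another gene. The window of 1 gene overlapped that of another in 190 cases (39.8% of the set; 14% of all windows), taking windows whose centres lie under 1000 bases apart on the deposited mm9 coordinates. In 108 cases (22.6%) the neighbour was read at TPM 1 or more in at least 50% of cells of both serum plates. This held for 15% of the marked and expressed windows and 5.82% of all windows. The neighbour lay on the other strand in 100 of the 108, at a median distance of 231.5 bases between centres, and upstream of the silent gene in 80 of these. Reads in such a window cannot be assigned to 1 of the 2 starts. A clear case is 1700034F02Rik (Clhc1 in RefSeq), with 445 reads of RNA polymerase II, whose window centre lies 91 bases from that of the ribosomal protein gene Rps27a, read in 100% of serum cells. Rnu12 overlaps Poldip3, Gm4532 overlaps Zfp553, the lncRNA E130317F20Rik overlaps the splicing regulator Ptbp1, and the sperm kinase gene Tssk6 overlaps Ndufa13, a subunit of respiratory complex I. The 287 windows without any overlap are therefore given beside the whole set.

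RNA polymerase II reads at these promoters in serum lay between those of expressed genes and of the other silent classes compared. The median was 72 reads over the 477 windows (quartiles 43 and 120), against 120 in marked and expressed windows (78 and 181), 23 in silent windows with H3K27me3 and 13 in 3838 silent windows with under 50 reads of H3K4me3. H3K27ac followed the same order, with medians of 239, 363.5, 110 and 24 reads. Windows overlapping an active gene had medians of 115 (polymerase) and 378 (H3K27ac), close to those of expressed genes. Windows without any overlap had 59 and 212. The input library had a median of 23 reads in the set and in the expressed windows, 24 in silent windows with H3K27me3 and 16 in the unmarked ones. H3K4me3 reads move with both measures (medians 1086, 1561.5, 807.5 and 10 in the same order), and the rule fixed them.

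**Figure D1:**
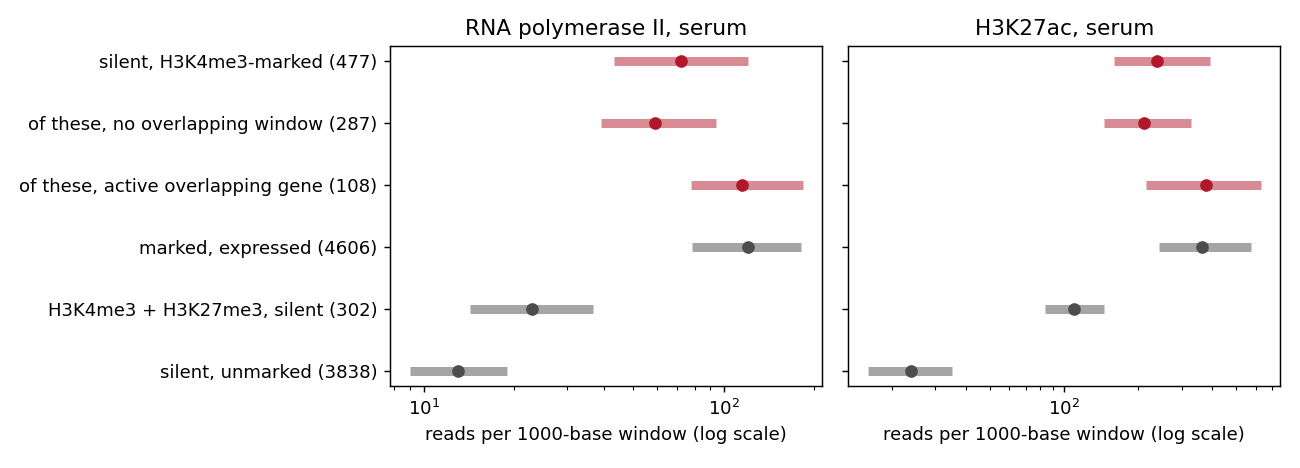
Reads per 1000-base window in serum for RNA polymerase II (left) and H3K27ac (right), log scale; points are medians over windows, bars run from the lower to the upper quartile, and the number of windows is in brackets. The silent marked windows sit at 72 and 239 reads, between the expressed windows (120 and 363.5) and the silent windows with H3K27me3 (23 and 110). Marked windows of genes between silent and expressed (82 and 279.5) are not drawn.

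Counted against input, 76 of the 477 windows (15.9%) had at least 20 reads of RNA polymerase II and were 2-fold over input after both libraries were scaled to their reads in all windows, where 11.1% of all windows did. For H3K27ac the count was 126 (26.4%; 13.7% of all windows). This scaling divides by reads that are themselves gathered in marked windows. With the ratio set to 1 in the silent unmarked windows, a choice made after the data were seen, the counts became 369 of 477 for polymerase (77.4%; 43.9% of all windows) and 469 for H3K27ac (98.3%; 56% of all windows). H3K36me3, a mark of transcribed gene bodies, passed in 16 windows (3.35%; 8.54% of all), and H3K9me3, a mark of heterochromatin, in 2 (0.419%; 7.35% of all).

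The windows with most polymerase were those of small RNAs and a few coding genes. Rnu12 (chr15:82979574-82980574, mm9) had 1299 reads in serum (exact Poisson 95% interval 1229 to 1372, counting error only), 919 in 2i and 1463 in the knockout. Lmln, a metallopeptidase gene with no overlapping window (chr16:33062106-33063106), had 777 reads in serum (723 to 834), 368 in 2i and 608 in the knockout. Bulk RNA of Lmln read 0.0521 and 0 TPM for serum, 0.234 for 2i, 0.163 and 0.173 for the knockout, and no 2i or knockout cell had a listed value. Epn1, an adaptor of clathrin coats, had 411 polymerase reads and was read in 37.2% of 2i cells, 42.9% of knockout cells and 48.1% of NPCs. At the other end, Vps37d, a subunit of the ESCRT-I sorting complex, had 7 reads (2.81 to 14.4), Hivep1, a zinc finger factor, had 9, and 2410066E13Rik, Galnt4 and the overlapping pair of Kif9 and Klhl18 had 12 each. Hivep1 had 8 input reads, and the others had more input than polymerase reads (12 to 30). H3K27ac at these 6 windows was 68 to 247 reads. Most H3K27ac lay on Gm4532 (1479 reads), Gtf2ird2 (1368), E130317F20Rik (1108), Pigw (1044) and Tssk6 (1026).

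Among the 21 small RNA genes the median was 294 polymerase reads (29 to 1299), 618 of H3K27ac and 95 of H3K36me3, the last against 18 over the whole set. Snord35a (194 H3K36me3 reads), Snord33 (180) and Snord52 (149) were the highest. Many vertebrate snoRNAs are encoded within host genes, and whether a window lies in a host was not examined. Snord15a, Snord42b and Snora16a overlapped active genes on the same strand, which were Rps3, Rpl23a and Snhg12. Mir290, the first hairpin of the miR-290 cluster that dominates the microRNAs of mESCs, had 924 polymerase reads in serum (865 to 986), 318 in 2i and 865 in the knockout. The other windows of the cluster, which were outside the single-cell table, read 894 (Mir291b) to 1175 (Mir295) in serum. On the log2 scale, centred on the median window, Mir290 polymerase stood at -0.25 in the knockout and -0.89 in 2i relative to serum. The mature sequences of 3 of the microRNA genes follow, from RefSeq (GRCm38.p6), with the seed, bases 2 to 8, in capitals, because the seed sets which messages a microRNA binds. No 2 of the arms share a seed.
mmu-miR-290a-5p: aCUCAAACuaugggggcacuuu
mmu-miR-290a-3p: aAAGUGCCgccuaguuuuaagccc
mmu-miR-3091-5p: cAUGGGUCugguugggcccgc
mmu-miR-3091-3p: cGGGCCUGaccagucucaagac
mmu-miR-707: cAGUCAUGccgcuugccuacg
Mir3091 overlaps the ribosomal protein gene Rps21 and had 425 polymerase reads, and Mir707, which overlaps Tbc1d17, had 147.

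Shares of cells in the other populations did not follow the order of polymerase in serum. The 263 protein-coding genes without an overlapping window were split into 4 bins by serum polymerase, of 7 to 37, 37 to 56, 57 to 89 and 89 to 777 reads. Their median share of 2i cells at TPM 1 or more was 18.1%, 27.1%, 21.3% and 17.6% in that order. In knockout cells it was 20.2%, 26.2%, 19% and 19%, and in NPCs 14.8%, 20.4%, 14.8% and 11.1%. Serum bulk medians were 0.0703, 0.0971, 0.0575 and 0.107 TPM. H3K27ac medians were ordered as polymerase, at 157, 181.5, 233 and 318.5 reads.

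Outside serum, many of these genes were read in single cells. In 2i, 188 of the 477 (39.4%) were at TPM 1 or more in at least 20% of cells, in the knockout 185 (38.8%), and among NPCs 149 of the 423 found in that table (35.2%). Over all genes with a window the shares were 59.6%, 59.7% and 64.1%, but most of those are expressed in serum as well. Other genes silent in serum cells are the closer comparison. Of the silent unmarked genes 6.12%, 6.46% and 12.2% reached 20% of cells in 2i, the knockout and NPCs, and of the silent genes with both H3K4me3 and H3K27me3 15.9%, 17.9% and 34.2%. In 2i and knockout cells the share was thus highest for the genes marked by H3K4me3 without H3K27me3, and among NPCs it was close to that of the genes with H3K27me3. Cells are not replicates and these populations have 1 sample each, so no test was made. In stem cells, 28 of the 341 genes above 0 had values identical to those of another name, so their reads may be shared.

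At TPM 1, the order in 2i and the knockout was the same at each bulk level in serum. Among genes at 0 in both serum bulk libraries, 11.5% of the marked set, 8.41% of the H3K27me3 class and 3.25% of the unmarked reached 20% of 2i cells. Above 0 and up to 0.1 TPM the shares were 38%, 15.2% and 8.40%, and above 0.1 and up to 0.3 TPM 55.4%, 35.6% and 22.3%. Above 0.3 TPM they were 76.2%, 44.4% (of 9 genes) and 22.8%. Knockout cells gave 11.5%, 37.4%, 54.5% and 74.6% for the marked set over the 4 levels. In NPCs the marked set stood at 16.1%, 40.1%, 38.3% and 48.3%, and the H3K27me3 class at 26.4%, 34.3%, 53.7% and 44.4%. Leaving out all windows that overlap another, the shares of the marked set became 49.8% in 2i, 51.2% in the knockout and 42.3% in NPCs.

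**Figure D2:**
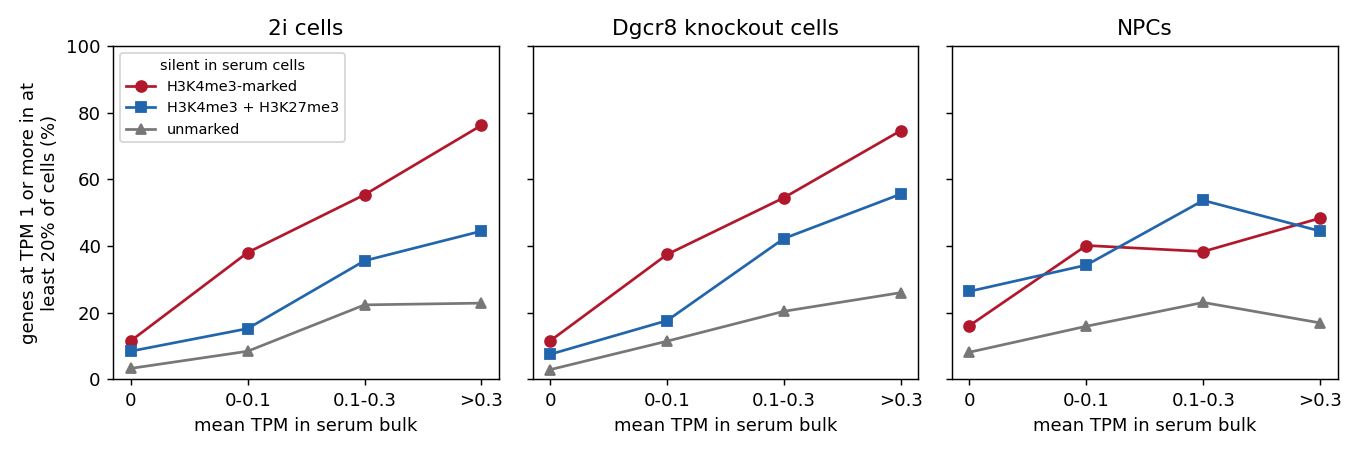
Share of genes silent in serum cells that were at TPM 1 or more in at least 20% of 2i cells, knockout cells or NPCs (y axis, percent), by mean TPM in the 2 serum bulk libraries (x axis), for genes marked by H3K4me3 alone (red), by H3K4me3 and H3K27me3 (blue) and unmarked (grey). In 2i the red points run from 11.5% to 76.2% and lie above the others at each level; at TPM 5 they do not at the upper 2 levels.

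These shares rest on low values. At TPM 5 in place of 1, the marked genes that reached 20% of cells numbered 25 in 2i (5.24%), 54 in the knockout (11.3%) and 60 in NPCs (14.2%), against 2.32%, 2.34% and 5.23% of the unmarked and 2.98%, 3.97% and 18.3% of the genes with H3K27me3. Within bulk levels the order was not kept at TPM 5. In 2i, above 0.1 and up to 0.3 TPM, the marked set was at 7.14%, the H3K27me3 class at 11.1% and the unmarked at 8.54%, and above 0.3 TPM the marked set and the H3K27me3 class were at 15.9% and 22.2%. In the knockout, among genes at 0 in serum bulk, the marked set was the lowest of the 3 (0.885%, 1.87% and 1.07%). Detection also differed between the populations. Genes at TPM 1 or more in the median cell numbered 7780 and 7648 for the serum plates, 9974 for 2i, 9317.5 for the knockout and 7368 for NPCs. The part of detection in the shares was not tested. Of the 477 genes, 140 passed in both 2i and knockout cells, 48 in 2i but not the knockout, and 45 in the knockout but not 2i; 32 of these 93 passed in NPCs as well. A further 29 passed in NPCs only, and 215 passed in none of the 3 populations, 51 of which are not in the NPC table. Among all 477, 136 were listed at 0 in every stem cell. This split was not counted over other genes, so it describes the set only and gives no comparison.

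Leading in 2i was Zfhx2, a zinc finger homeobox factor, read in 94.7% of cells (exact binomial 95% interval 88 to 98.3, counting error only), in 23.8% of knockout cells and 22.2% of NPCs. Fam102a was read in 87.2% of 2i cells (78.8 to 93.2) and 48.8% of knockout cells. Creb3l2, a membrane-bound transcription factor of the secretory pathway, reached 81.9% in 2i, 45.2% in the knockout and 79.6% in NPCs, where its mean was 39.6 TPM against 6.37 in 2i. Dusp7, a phosphatase that acts on ERK, was read in 78.7% of 2i cells and 22.6% of knockout cells, and Ank, a pyrophosphate transporter, in 73.4% of 2i cells, 19% of knockout cells and 87% of NPCs (mean 67.6 TPM). The lncRNA 4930513N10Rik, which shares its window with Cnot1, was read in 83% of 2i cells, 79.8% of knockout cells and 0% of NPCs. Mbd6, of the methyl-CpG-binding domain family, was read in 73.4% of 2i cells, 54.8% of knockout cells and 50% of NPCs, and the F-box gene Fbxl12 in 72.3%, 27.4% and 25.9%.

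Knockout cells read Ankrd52, a regulatory subunit of protein phosphatase 6, most widely, in 91.7% (83.6 to 96.6) against 47.9% in 2i. Next came 4930513N10Rik, the kinase gene Mink1 (78.6%), Rbl2 (77.4%), Os9, a lectin of endoplasmic reticulum quality control (73.8%), the kinase gene Mast3 (66.7%), and Ehbp1 and Ypel2 (65.5% each). NPCs read the chloride channel gene Ttyh3 in 79.6%, and Fhl3, a LIM-domain protein, and Myo6, a minus-end-directed myosin, in 77.8% each. Fhl3 was read in 26.6% of 2i cells and had no value above 0 in the knockout cells. Arhgef17 was at 72.2% in NPCs, and Ptk7, a receptor of planar cell polarity, and Trp53inp2, an autophagy gene, at 66.7%. The NPC table was made separately from the stem cell table, so levels set across them are side by side only.

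**Figure D3:**
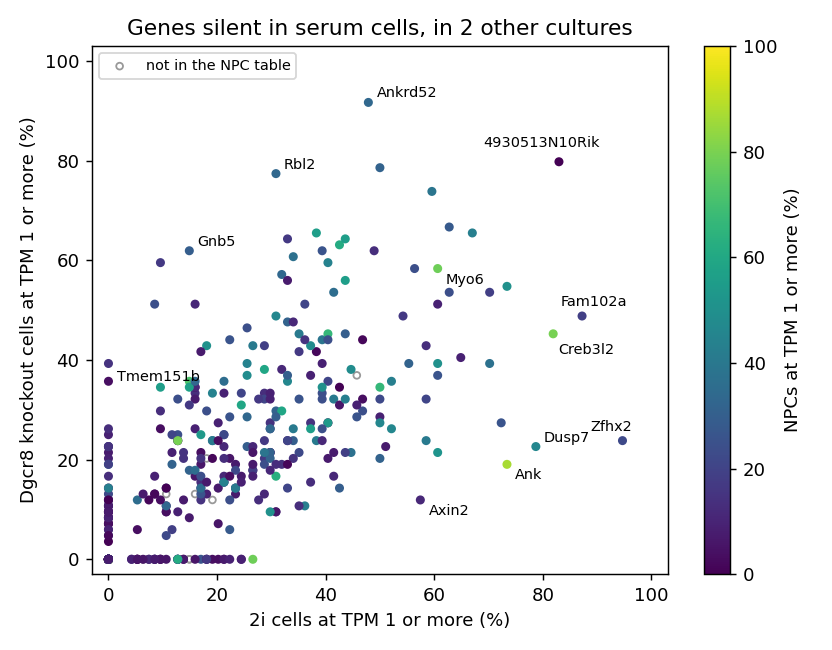
Each point is 1 of the 477 genes: percent of 2i cells (x axis) and of Dgcr8 knockout cells (y axis) at TPM 1 or more, coloured by the percent of NPCs; open points were not in the NPC table. Zfhx2 (94.7% and 23.8%) and Rbl2 (30.9% and 77.4%) lie far from the diagonal on opposite sides.

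A few families were looked up after the list was seen, and no theme is claimed for them. Of cell cycle genes, Rb1, the retinoblastoma protein, was read in 25.5% of 2i cells, 39.3% of knockout cells and 44.4% of NPCs. Its relative Rbl2 was read in 30.9%, 77.4% and 33.3%, and the E2F transcription factor gene E2f2 in 27.7%, 32.1% and 16.7%. Of Wnt pathway genes, Axin2, a feedback inhibitor and common target of the pathway, was read in 57.4% of 2i cells, 11.9% of knockout cells and 11.1% of NPCs. The co-receptor Lrp5 was at 33%, 56% and 7.41%, the GSK3-binding Frat2 at 8.51%, 51.2% and 24.1%, and Kremen1, a Dickkopf receptor, at 12.8%, 25% and 24.1%. Of the listed gene groups, none of 18 germline, 20 interferon and innate immunity, 13 immediate early, 14 neuronal and 8 heat shock genes with a window was in the set. Among 212 genes with names of the Spata, Tekt, Ccdc, Dnah, Tex, Odf, Spag or Tssk type, 8 were (Spata17, Tssk6 and 6 Ccdc genes; 3.77%). Over all windows 2.06% were in the set, so a count of 0 in lists this short says nothing about them.

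The targeted gene, Dgcr8, had bulk levels of 10.6 and 10.3 TPM for serum, 4.66 for 2i, and 4.03 and 2.20 for the knockout, and RNA under its name was read in 94.0% of knockout cells. Which part of the gene is deleted is not known here, so its RNA level is a weak check of the label. The summed TPM of 8 pluripotency markers in the median cell was 8068 and 12342 for the serum plates, 18162 for 2i, 23189 for the knockout and 23.7 for NPCs. Neural precursor markers summed to 3.83, 5.70, 49.1, 80.4 and 1214 TPM in the same order. Fibroblast markers were at 0 in every serum cell for 8 of 8 genes, and at 0 in every 2i and knockout cell for 7 of 8. In NPCs 0 of the 8 were at 0 throughout, and they summed to 77.9 TPM in the median cell (quartiles 25.5 and 208). Sums of 6 primitive endoderm markers were 46.5, 47.6, 272, 229 and 1238 TPM, and of 5 neuron markers 76.8, 111, 99.8, 303 and 0.557 TPM, again in that order. In serum cells 5 of the 6 and 4 of the 5 were at 0 throughout, so each sum there is 1 gene. The part of these markers in the shares of cells was not tested. None of the marker genes is in the set.

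Bulk RNA of the knockout against serum was compared in limma after taking log2(TPM + 1), keeping genes whose mean over the 5 libraries was at least 1 TPM, with calls at a Benjamini-Hochberg adjusted p under 0.05. Only 35 of the 459 genes passed this filter, 9 through their serum level and 26 with a serum mean under 1 TPM. A gene that passed only because it is high in the knockout had to differ, so the count among them is not support: 31 rose and 0 fell, where 62.5% of the 10081 genes tested rose and 11.7% fell. At an unadjusted p under 0.05, 32 were higher and 0 lower. The median log2 change of all tested genes was itself 0.92, against 1.36 for the 35. With each library centred on its median tested gene, 9 of the 35 rose and 3 fell (21.8% and 36.5% of all genes). Without the filter, 134 of 417 rose and 6 fell (37% and 5.54% of 18889 genes). Both knockout libraries lay above both serum libraries for 251 of the 459 genes (54.7%; 55.3% of all genes) and below both for 15 (3.27%; 10.2%). Serum medians of 0.0751 and 0.0241 TPM left the set little room to fall, with or without the filter. The balance of rises over falls is therefore no result about the set. A TPM of 1 or more was reached in both knockout libraries by 60 genes (13.1%; 52.5% of all genes) and in the 2i library by 27 (5.88%; 45.3%). The share above both serum libraries is near that of genes at large and is no result about the set. The shares at TPM 1 or more are lower than over all genes, but the set was chosen for silence in serum cells. Among all 6423 genes silent in serum cells, 11.1% and 10.4% reached TPM 1 in knockout libraries 1 and 2, and 3.52% in 2i. In the set the shares by library were 16.8%, 17.4% and 5.88%. The labels do not say that the bulk libraries came from separate cultures, so the p-values measure the spread between these libraries, which may be technical.

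Gnb5, a G protein beta subunit that works with RGS proteins, had the largest change: TPM was 0.309 and 0 for serum, 0.112 for 2i, then 15.2 and 13.7 for the knockout (limma log2 change 3.75, SE 0.26, 2 libraries against 2). Both knockout values are above all others by a wide margin. Lmbr1l, a multi-pass membrane protein, had a TPM of 0.762 and 0.804 for serum, 0 for 2i, then 10 and 11.5 for the knockout (2.72, SE 0.25). Os9 had 0.414 and 0.131 for serum, 0.991 for 2i, then 5.20 and 6.85 for the knockout (2.46, SE 0.26). Rbl2, the pocket protein p130, had 0.0449 and 0.071 TPM for serum, 0.161 for 2i, then 2.53 and 3.69 for the knockout (1.94, SE 0.24). Mpst, a sulfurtransferase that yields hydrogen sulfide, Aqp11, an intracellular aquaporin, D10Jhu81e (Gatd3a in RefSeq), Angel1, Ankrd52 and Tmem151b rose by 1.70 to 2.40 on the same scale. Most of these genes passed the filter on low values through the knockout libraries, so the filtered test is no support for them. With no filter, all 10 were still called in limma. They were picked on these same libraries, and most alternatives kept the filter, so repeated calls are no independent support. Over the 11 alternatives the largest limma adjusted p was 0.00461 for Gnb5, 0.00489 for Lmbr1l and 0.00711 for Os9. Rbl2 was tested in only 9 of the 11, where its largest limma adjusted p was 0.0230. The call of Tmem151b ended when libraries were centred on the median gene (adjusted p = 0.0575 in limma).

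**Figure D4:**
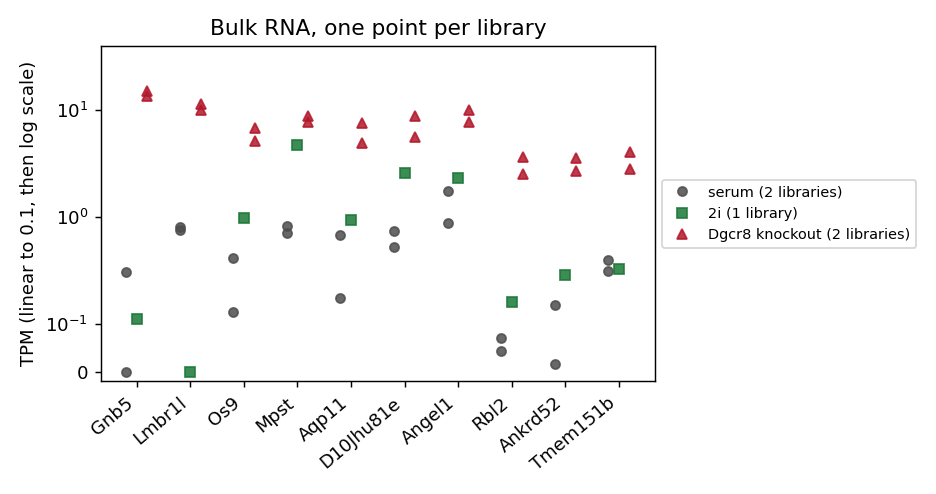
TPM in each bulk library (y axis, linear to 0.1 and then log) for the 10 genes of the set with the largest rise in the knockout, with serum (grey circles), 2i (green squares) and knockout (red triangles). Both knockout points lie above both serum points for each gene, as for Gnb5 at 15.2 and 13.7 TPM against 0.309 and 0.

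In 2i there is 1 bulk library, which has no replicate check of its own and is assumed in limma to vary like the pairs. On that assumption, 5 of the 35 tested genes rose and 1 fell (20.4% and 11.8% of all genes). Fam102a went from 0.177 and 0.187 TPM in serum to 6.05 in 2i, with 1.23 and 1.34 in the knockout (limma log2 change 2.58, SE 0.29). Mpst went from 0.709 and 0.826 to 4.74 (1.70, SE 0.31) and Mast3 from 0.0342 and 0 to 1.51 (1.30, SE 0.28). All 3 have serum means under 1 TPM and passed the filter through the libraries where they are high. They were also called with no filter. Repeated calls on the libraries that picked these genes, mostly with the filter kept, are no independent support. Their calls held in each alternative in which they were tested, which were all 10 for Fam102a and Mpst but only 8 for Mast3. Those of Fbxl12 and D10Jhu81e, which rose, and of A130022J15Rik, which fell by 0.91, ended under 4 to 6 of 10 alternatives. Zfhx2, first in 2i cells, had bulk levels of 0.0246 and 0.0191 TPM for serum and 0.484 for 2i, under the filter. Knockout and 2i share the serum libraries as control.

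Few of these windows changed by 2-fold in polymerase or H3K27ac between cultures. Ratios to serum, scaled to the reads in all windows and centred on the median window, are from 1 library each and carry no test. RNA polymerase II was at least 2-fold higher in 2i at 14 of 475 windows (2.95%; 9.67% of all) and 2-fold lower at 24 (5.05%; 7.82%). In the knockout it was higher at 13 (2.73%; 8.54%) and lower at 15 (3.14%; 4.49%). H3K27ac was higher in 2i at 9 (1.89%; 4.64%) and lower at 10 (2.1%; 10.2%), and in the knockout higher at 11 (2.31%; 3.36%) and lower at 11 (2.31%; 7.53%). Without centring, the H3K27ac counts were 2 higher and 16 lower in 2i, and 3 higher and 23 lower in the knockout. Each of the 8 centred shares is below that of all windows. Median serum reads were higher in the set than over all windows in the cell table (72 and 41 for polymerase, 239 and 127 for H3K27ac), and the part of read number in these shares was not tested. The median change of the set was -0.07 and -0.06 log2 for polymerase in 2i and the knockout, and 0.14 in both for H3K27ac.

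Axin2 stood out in 2i in both measures, with 17 polymerase reads in serum (9.90 to 27.2), 32 in 2i (21.9 to 45.2) and 36 in the knockout, and H3K27ac of 220, 677 and 302 reads. Its centred log2 ratios in 2i were 1.52 and 1.43. Otud1, a deubiquitinase, went with it (1.36 and 1.14), together with Gm3230, which shares its window. Katnal1, a microtubule-severing subunit, had H3K27ac of 161, 485 and 265 reads. On the low side in 2i, Il17d, a cytokine gene, had 88 polymerase reads in serum (70.6 to 108), 5 in 2i (1.62 to 11.7) and 110 in the knockout, with H3K27ac of 400, 125 and 530. Its H3K4me3 was 1267, 233 and 644 reads in the same order. Its RNA was listed at 0 in every stem cell and NPC, while bulk RNA read 0.283 and 0 TPM for serum and 0 for 2i and the knockout. The ephrin receptor gene Epha1 (18, 2 and 22 polymerase reads), Tmem151b (35, 4 and 25), the kinase gene Brsk1 (22, 4 and 38) and the lncRNA Kis2 (197, 22 and 85) were also low in 2i. All 4 were listed at 0 in every 2i cell.

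In the knockout, polymerase was most raised at Klhl18 and Kif9, which share a window (12 reads each in serum, 45 and 38 in the knockout), Zyg11a (41 and 132), Vps37d (7 and 29) and the interleukin receptor gene Il3ra (28 and 80). Knockout input was 36, 29 and 22 reads at Klhl18, Kif9 and Vps37d, so their knockout values lay near input. At Zyg11a and Il3ra it was 14 and 18. Il3ra also gained H3K27ac (184 to 371 reads), as did Cpeb2, a regulator of translation (184 to 410), and Zfat (526 to 1105). Shank3, a synaptic scaffold gene, had 37 polymerase reads in serum and 10 in the knockout, and Zfp651 106 and 30. Slc4a8, a bicarbonate transporter gene, had H3K27ac of 146 reads in serum and 20 in the knockout, where input had 19. Gains of RNA and of chromatin signal did not always coincide: Gnb5 had 28 and 34 polymerase reads and H3K27ac of 184 and 70, and Aqp11 had 54 and 19 polymerase reads, although both rose in bulk RNA.

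**Figure D5:**
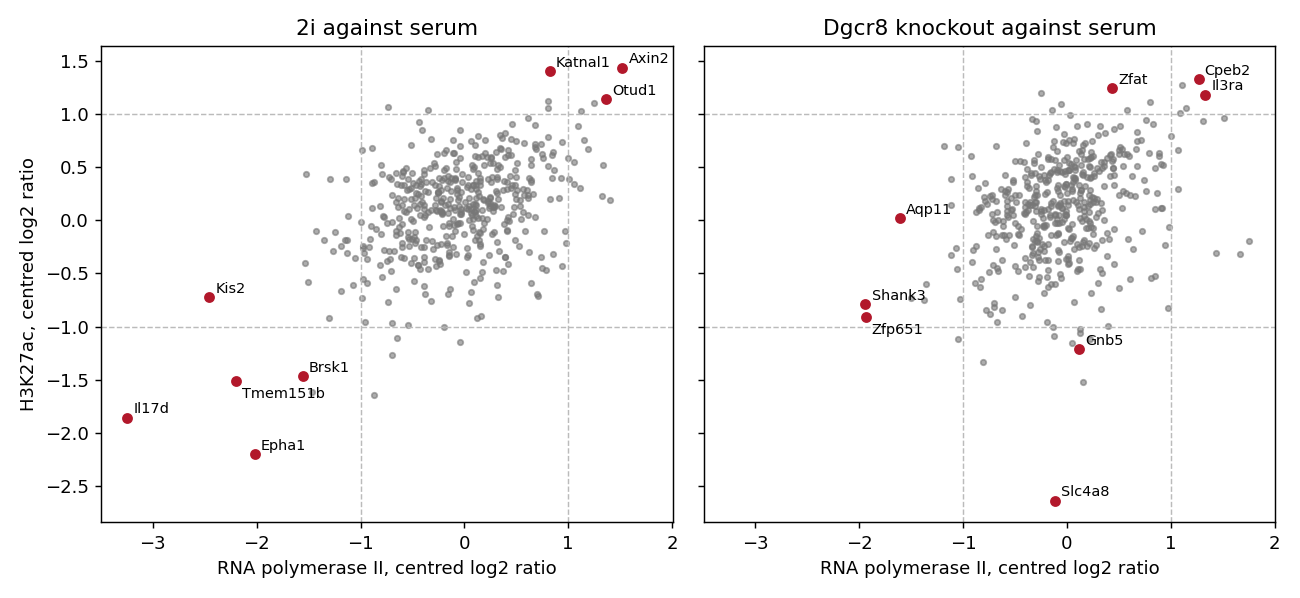
Centred log2 ratio to serum of RNA polymerase II (x axis) and H3K27ac (y axis) for the windows of the set in 2i (left) and in the knockout (right), from 1 library per mark and culture; dashed lines mark 2-fold. Axin2 lies at 1.52 and 1.43 in 2i and Il17d at -3.25 and -1.85, while Gnb5 lies at 0.12 and -1.21 in the knockout.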

How the data were processed

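The ChIP table holds raw read counts of the authors in a window of 1000 bases per gene on mm9, per the file headers and the submitters' processing notes, which also name Bowtie and RSEM without versions or roles. RNA values were deposited as natural log(TPM + 1) and turned back into TPM; the sources used here state no filter, and TPM keeps no read depth. Counts summed over all windows ran from 333088 (H3K36me3, knockout) to 15315269 (H3K4me3, serum).

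Columns were matched to samples by name. The members and lists were chosen with earlier results of these data known. Medians, shares and counts were computed in Python 3.11.15 with exact binomial (Clopper-Pearson) and Poisson intervals, which cover counting error only. Bulk libraries were compared with limma 3.58.1 in R 4.3.3 (trend, 1 mean per group, 2 residual and 10.2 prior degrees of freedom), tested on simulated data. Named genes are those with the most and fewest polymerase reads, most H3K27ac or H3K4me3, highest serum bulk level, highest shares of cells, largest called changes and largest ChIP changes past 2-fold, plus those next to each limit. Genes absent from a table (54 from NPCs, 18 from bulk, 252 marked windows from the cell table) were not analysed here. All listed cells were kept, with no doublet calling. Promoters are the first entry per symbol of the RefSeq table. Alternatives covered the limits of the rule, pseudocount, filters, scaling, the replicate block and leaving out libraries.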

Additional observations from a re-analysis of the deposited data

How the results depend on the processing

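The number of genes in the set stayed within 1.5 times of 477 (322 to 628) under 7 of 8 alternative limits, and was 1338 when a cell had to reach TPM 5. Median polymerase reads ran from 63 to 83 and H3K27ac from 206 to 286. Above input at 3-fold, 36 of 477 windows passed for polymerase and 47 for H3K27ac, and the share over all windows was not counted. Scaled to silent unmarked windows, a setting added after the data were seen, 369 and 469 did (43.9% and 56% of all windows passed). Without centring, H3K27ac was 2-fold higher at 2 (2i) and 3 (knockout) windows and lower at 16 and 23, in place of 9, 11, 10 and 11. In knockout bulk, 31 higher and 0 lower of 35 became 134 and 6 of 417 with no filter (37% and 5.54% of all genes). At a mean TPM of at least 0.1 they became 130 and 2 of 316 (7657 and 1176 of all 15367 genes). Centred on the median gene they became 9 and 3 of 35 (21.8% and 36.5% of all genes). After quantile normalisation they became 13 and 2 of 35 (2926 and 2904 of all 10081 genes). All were called with limma. Left-out libraries gave 21 to 36 higher and 0 lower. In 2i bulk, 5 higher and 1 lower became 17 and 0 with no filter, 19 higher at a mean TPM of at least 0.1, 4 lower with a pseudocount of 0.1, 4 lower after centring and 5 lower after quantile normalisation. Left-out libraries gave 3 to 4 higher and 0 to 1 lower; without the second serum library 3 were higher, and without the first serum library or either knockout library 0 were lower. At 50% of cells the counts were 36 in 2i, 30 in the knockout and 28 in NPCs, and at 10% of cells 228 in NPCs. The shares over all genes at these limits were not counted. At TPM 5 the counts were 25 (5.24%), 54 (11.3%) and 60 (14.2%), against 47.8%, 49.6% and 51.3% of all genes with a window. The bulk counts rest on 35 genes of the set tested in the main fit, 417 with no filter and 316 at a mean TPM of at least 0.1. With a library left out, 26 to 44 were tested. Counts from settings that tested different numbers of genes are not comparable as such. Serum bulk values near 0 left most genes of the set little room to fall in any setting. The causes were not tested.

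With the replicate number as a block, a pairing that no label states, 32 genes were higher in the knockout, and 5 were higher and 3 lower in 2i. No shared deviation by number was seen, as the deviations of same-numbered serum and knockout libraries correlated at -0.03 over 10081 genes. This single value cannot tell whether the libraries were handled in pairs.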
